A study of Homo sapiens with 16 samples.

Results

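The effect of estradiol (E2) in the presence of (2R,6R)-hydroxynorketamine (2R6R-HNK) was measured by RNA-seq in HMC3 cells. It was taken from 4 of the 16 libraries of the study, 2 from cells given 0.1 nM E2 together with 400 nM 2R6R-HNK (E2+2R6R-HNK) and 2 from cells given 400 nM 2R6R-HNK alone (2R6R-HNK), and both groups carry the metabolite, so that they differ by E2. Treatment lasted 24 h in medium without serum and phenol red. HMC3 is an established human microglial cell line, and all libraries come from this 1 line. The other 12 libraries, with 2 per condition, are vehicle, E2 alone, 2S6S-HNK with and without E2, and ketamine with and without E2, all at these doses. They were used here for the pooled estimate of the spread and to ask whether the E2 effect seen with 2R6R-HNK differed from the E2 effect with vehicle, with 2S6S-HNK or with ketamine. Nothing in the labels ties the 2 libraries of a group to different cultures, and p-values therefore measure the spread between libraries, which may be technical.

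E2 is the principal estrogen. It acts through the nuclear receptors ERα and ERβ (genes ESR1 and ESR2), which bind DNA at estrogen response elements or through other transcription factors, and through the membrane receptor GPER. Hydroxynorketamines arise when the body metabolizes ketamine. The forms (2R,6R)-HNK and (2S,6S)-HNK are mirror-image stereoisomers, and both have been studied for antidepressant-like actions, in which glutamate signaling, the neurotrophin BDNF and the immune response of microglia are all of interest.

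The 4 libraries held 58121307 to 78275204 counts, and 3 counts corresponded to 0.0389 to 0.0525 CPM (counts relative to the library total, scaled by TMM). Within a condition, counts of the 2 libraries differed by 2.68 times (2R6R-HNK) and 2.99 times (E2+2R6R-HNK) the variance that sampling of counts would give. Of 23 microglia markers, 8 were expressed enough to be tested. CX3CR1, P2RY12, TYROBP and SPI1, which define microglia, had 0 counts in all 4 libraries, and AIF1, ITGAM, TMEM119 and PTPRC had 0 to 4 counts. CD68 had 1007 to 1746 counts. The summed microglia markers were at 87.2 to 90.4 CPM with 2R6R-HNK and 107 to 112 CPM with E2+2R6R-HNK, with 3 members that rose and 1 that fell. In bulk RNA, fewer cells of a type and less RNA per cell cannot be told apart. Some defining markers of other cells were likewise at or near 0 (STMN2, DCX, OLIG1 and OLIG2 at 0; PECAM1 and CDH5 under 0.5 CPM), but other members of these lists were expressed. The summed neuronal markers were at 130 to 132 CPM with 2R6R-HNK and 88.5 to 91.7 CPM with E2+2R6R-HNK (0 of 7 tested rose and 2 fell). Most of that sum was the tubulin TUBB3, at 128 and 125 CPM with 2R6R-HNK and 84.1 and 86.7 CPM with E2+2R6R-HNK. Of the 14 neuronal markers, 4 were at 0 and 5 more under 0.5 CPM. The summed oligodendrocyte markers were at 296 to 300 CPM with 2R6R-HNK and 245 CPM with E2+2R6R-HNK (1 of 5 rose and 2 fell). The summed fibroblast markers reached 7290 to 7320 CPM with 2R6R-HNK and 6650 to 6770 CPM with E2+2R6R-HNK, and the summed pericyte or smooth muscle markers 2140 to 2150 and 2470 to 2500 CPM. Of the latter list 7 of 10 members rose and 0 fell, and of 8 tested fibroblast markers 1 rose and 6 fell. Over all 16004 genes tested, 24.2% rose and 23.8% fell at an adjusted p under 0.05. The counts of these short marker lists have to be read beside those shares.

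Of the receptors for E2, ESR1 was near the detection limit, with 0 and 2 counts in the 2R6R-HNK libraries and 0 and 0 in the E2+2R6R-HNK libraries, and it did not pass the filter on low counts. ESR2 had 25 and 15 counts without E2 and 17 and 28 with E2, groups that overlap (log2 fold change 0.06, 95% interval -0.90 to 1.02, adjusted p = 0.936). GPER1 (the gene of GPER) fell from 1.27 and 1.54 CPM to 0.78 and 0.81 CPM (log2 fold change -0.81, standard error 0.26, adjusted p = 0.00675), which no longer passed without 2R6R-HNK replicate 2 (edgeR adjusted p = 0.0746). A change of ESR2 was thus not detectable at this depth.

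**Figure D1:**
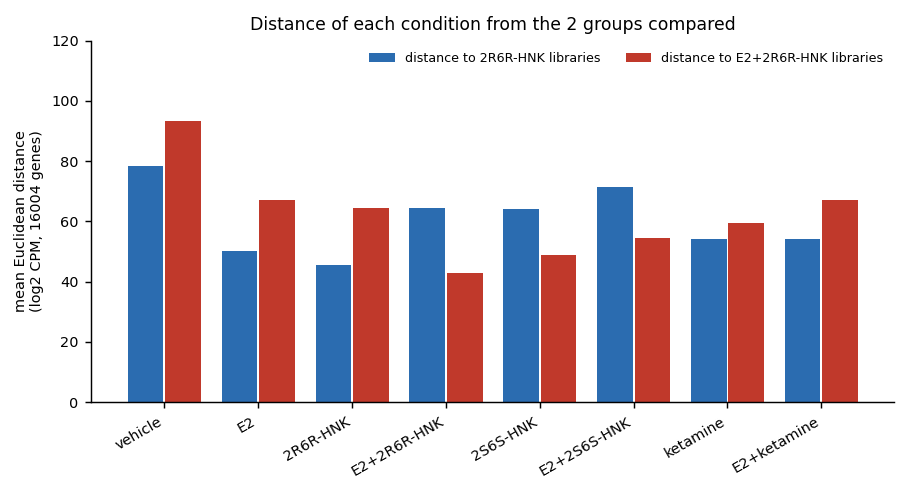
Mean Euclidean distance, in log2 CPM over 16004 genes, from each of the 8 conditions to the 2R6R-HNK libraries (blue bars) and to the E2+2R6R-HNK libraries (red bars); for a group against itself the bar is the distance between its 2 libraries. The E2+2R6R-HNK libraries lie at 48.8 from 2S6S-HNK and at 64.4 from 2R6R-HNK.

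Before the genes are described, the position of the 2 groups among all conditions has to be given. In log2 CPM over all genes tested, the E2+2R6R-HNK libraries were at a mean distance of 42.8 from each other. They were at 48.8 from 2S6S-HNK, 54.4 from E2+2S6S-HNK, 59.3 from ketamine and 64.4 from 2R6R-HNK. The 2R6R-HNK libraries were 45.4 apart, and their nearest other condition was E2 alone at 50.1. With the 500 most variable genes, the E2+2R6R-HNK libraries were at 23 from each other and also at 23 from E2+2S6S-HNK. They were at 26 from 2S6S-HNK, 27.3 from ketamine and 32 from 2R6R-HNK. Over these genes the 2R6R-HNK libraries were 25.3 apart, and their nearest other condition was ketamine at 25.2. The nearness of E2+2R6R-HNK to 2S6S-HNK and E2+2S6S-HNK was looked for gene by gene after it had been seen. Of the 310 genes called higher with E2, 220 (71.0%) had condition means in E2+2R6R-HNK, 2S6S-HNK and E2+2S6S-HNK that were all above the means of the other 5 conditions, and of the 167 called lower, 110 (65.9%) had all 3 below them. Among all genes tested, 15.7% separated these 3 conditions from the other 5 in either direction. E2 is present in 2 of the 3 conditions on the one side and in 2 of the 5 on the other. No label assigns a library to a culture day, extraction or sequencing lane, and no gene measured here checks which treatment a library received. The part of any of these, or of an exchange of labels, in the separation was not tested, and E2 effects below are those between the groups as labelled.

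Many genes differed between E2+2R6R-HNK and 2R6R-HNK, mostly by little. Of 16004 genes tested, 7671 (47.9%) passed an adjusted p of 0.05, of which 3866 (24.2%) were higher and 3805 (23.8%) lower with E2 (edgeR quasi-likelihood test, Benjamini-Hochberg adjustment). The median log2 fold change of all genes was 0.0084. The balance turned after correction for GC content and length (3389 higher and 4436 lower, median -0.024) and with DESeq2 (3322 and 3690). Adding the study's limit on size, a log2 value of 1 or more up or down, left 477 called genes (2.98%), 310 higher (1.94%) and 167 lower (1.04%). Of the 477, 285 had a mean below 1 CPM and 10 had 0 counts in both libraries of a group. Fold changes had little trend with exon GC content (Spearman correlation 0.054 across 15358 genes, which are not independent replicates). With exon length the correlation was 0.122. Median GC content was 54.8% for genes called higher, 51.0% for those called lower and 48.7% for all genes tested. A total of 68 genes (0.425% of those tested, 43 higher and 25 lower) were called, had a mean of at least 5 CPM and groups that did not overlap, which on its own held for 72.6% of all genes tested, and the 12 largest rises and 12 largest falls among them are described first.

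**Figure D2:**
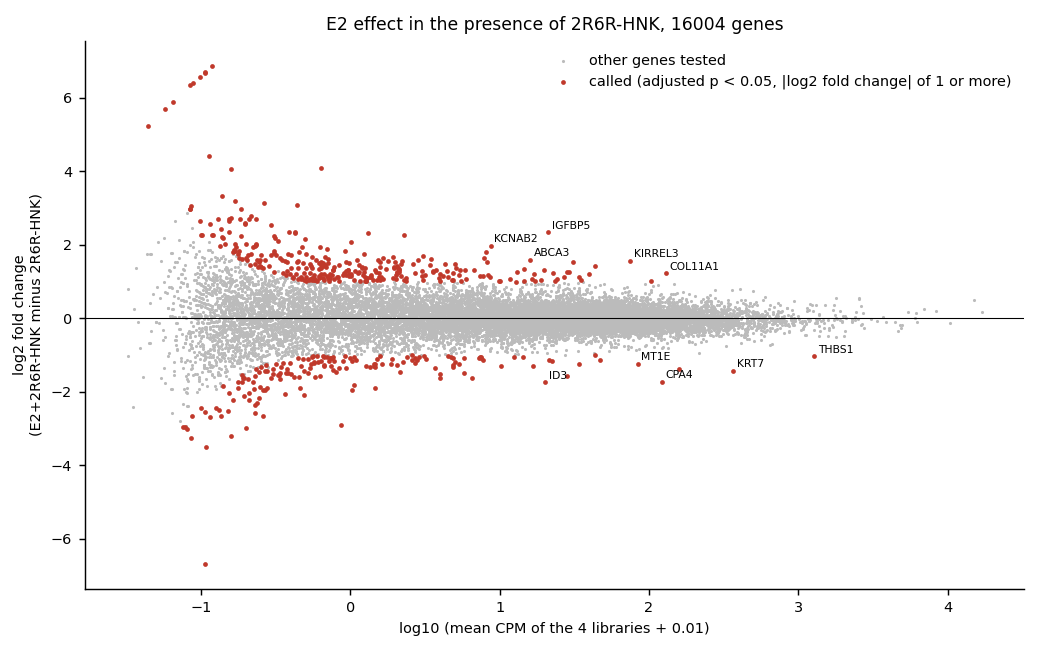
Log2 fold change of E2+2R6R-HNK over 2R6R-HNK (vertical axis) against log10 of the mean CPM of the 4 libraries plus 0.01 (horizontal axis) for 16004 genes; red points are the 477 called genes, of which 10 carry their symbol. Most points lie near 0, and the fold changes beyond 4 belong to genes with few counts.

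The largest rise was that of IGFBP5 (ENSG00000115461, chromosome 2 of GRCh37 from 217536828 to 217560272, minus strand), a secreted protein that binds insulin-like growth factors. IGFBP5 was at 6.43 and 7.59 CPM with 2R6R-HNK and at 35.1 and 35.4 CPM with E2+2R6R-HNK, a 5.06-fold difference (log2 fold change 2.34, standard error 0.08, adjusted p = 2.72e-28). Its mean was 8.24 CPM in vehicle, 8.84 in E2, 10.7 in ketamine and 12 in E2+ketamine, but 33.8 in 2S6S-HNK and 31.7 in E2+2S6S-HNK. Without E2, IGFBP5 was thus almost as high with 2S6S-HNK as it was with E2+2R6R-HNK. KCNAB2 (chromosome 1 from 6050987 to 6161253, plus strand), a cytoplasmic subunit of voltage-gated potassium channels, was at 3.56 and 3.48 CPM and rose to 13.7 and 13.9 CPM (log2 fold change 1.97). In 2S6S-HNK and E2+2S6S-HNK it was at 11.4 and 9.53 CPM.

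Of genes of the cell surface and of the matrix, KIRREL3, an adhesion molecule of the immunoglobulin superfamily, was at 38.8 and 36.4 CPM and rose to 109 and 114 CPM (log2 fold change 1.57, standard error 0.04, adjusted p = 3.35e-33). SEMA5A, a guidance cue for growing axons, went from 16.2 and 15.8 to 45.7 and 46.8 CPM (1.53). For both genes the groups were far apart and the libraries of a group close together. TNXB, the matrix protein tenascin-X, rose from 3.67 and 3.45 to 12.4 and 12.7 CPM (1.82); it has a near-identical truncated copy in the same locus and overlaps CYP21A2 on the other strand, so its counts are uncertain. HTRA1, a secreted serine protease that cleaves matrix proteins, rose from 4.11 and 4.27 to 12.7 and 11.6 CPM (1.54), and FBLN7, a fibulin, from 3.81 and 3.88 to 9.47 and 9.79 CPM (1.33). In TNXB and FBLN7 the 2S6S-HNK libraries were near the E2+2R6R-HNK level (means of 11.9 and 9.45 CPM), and in HTRA1 lower, at 8.7 CPM.

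Among transporters and enzymes, ABCA3, a lipid transporter, rose from 8.58 and 7.12 to 24.6 and 23.3 CPM (log2 fold change 1.60). SLC1A1, a transporter of glutamate, rose from 2.75 and 2.96 to 7.40 and 7.19 CPM (1.36). CDK18, a kinase of the PCTAIRE family, rose from 21.9 and 24.9 to 63.1 and 62.9 CPM (1.43). DNHD1, which has a dynein heavy chain domain, rose by 1.65 and FAM196B by 1.33 on the log2 scale. Adjusted p-values of the 12 rises were 9.86e-14 or smaller. All 12 had their 6 libraries of E2+2R6R-HNK, 2S6S-HNK and E2+2S6S-HNK above the 10 libraries of the other conditions, against 46.5% of all genes called higher and 7.51% of all genes tested, the latter in either direction.

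Of the genes that fell, ID3 (ENSG00000117318, chromosome 1 from 23884417 to 23885992, minus strand) and ID1 encode inhibitors of basic helix-loop-helix transcription factors and are known targets of BMP signaling. ID3 was at 31.9 and 30 CPM with 2R6R-HNK and at 9.35 and 9.29 CPM with E2+2R6R-HNK (log2 fold change -1.73, standard error 0.07, adjusted p = 2.98e-27). ID1 fell from 7.98 and 9.13 to 3.15 and 2.89 CPM (-1.5). In vehicle their means were 26.1 CPM (ID3) and 8.2 CPM (ID1), above those of E2+2R6R-HNK. CPA4 (chromosome 7 from 129932974 to 129964020, plus strand), a secreted carboxypeptidase, fell from 184 and 191 to 54.9 and 58.5 CPM (log2 fold change -1.72, standard error 0.03, adjusted p = 4.66e-40). Its mean was 286 CPM in vehicle, 222 in E2, 70.8 in 2S6S-HNK and 65.2 in E2+2S6S-HNK.

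The steroid-metabolizing cytochrome P450 genes CYP1B1, whose product hydroxylates E2 itself, and CYP24A1, which inactivates vitamin D, both fell. CYP1B1 was at 9.59 and 10.1 CPM and fell to 3.31 and 3.11 CPM (log2 fold change -1.61); its exons overlap those of CYP1B1-AS1 on the other strand, and the strand of the counting is not given in the sources used here. CYP24A1 fell from 7.35 and 7.57 to 2.90 and 3.46 CPM (-1.23). Of the cytoskeletal genes, KRT7 fell from 544 and 522 to 197 and 201 CPM (-1.42), KRT80 from 227 and 233 to 87.7 and 90 CPM (-1.37), and SYNPO, which binds actin, from 47.5 and 47.4 to 19.5 and 20.9 CPM (-1.23). The keratins KRT7 and KRT80 are epithelial proteins, and both were at more than 70 CPM in every condition, while the summed epithelial markers moved from 679 to 702 CPM without E2 to 456 to 470 CPM with E2, with 2 of 5 tested members that rose and 2 that fell. CRISPLD2, a secreted protein, fell by 1.57 on the log2 scale, PLEKHG4, a guanine nucleotide exchange factor, by 1.30, and UPP1, a uridine phosphorylase, by 1.30. The largest adjusted p of the 12 falls was 1.02e-12. Of these 12 genes, 11 had their 6 libraries of the 3 conditions below the other 10, against 38.9% of all genes called lower, and all 12 separated by condition means.

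**Figure D3:**
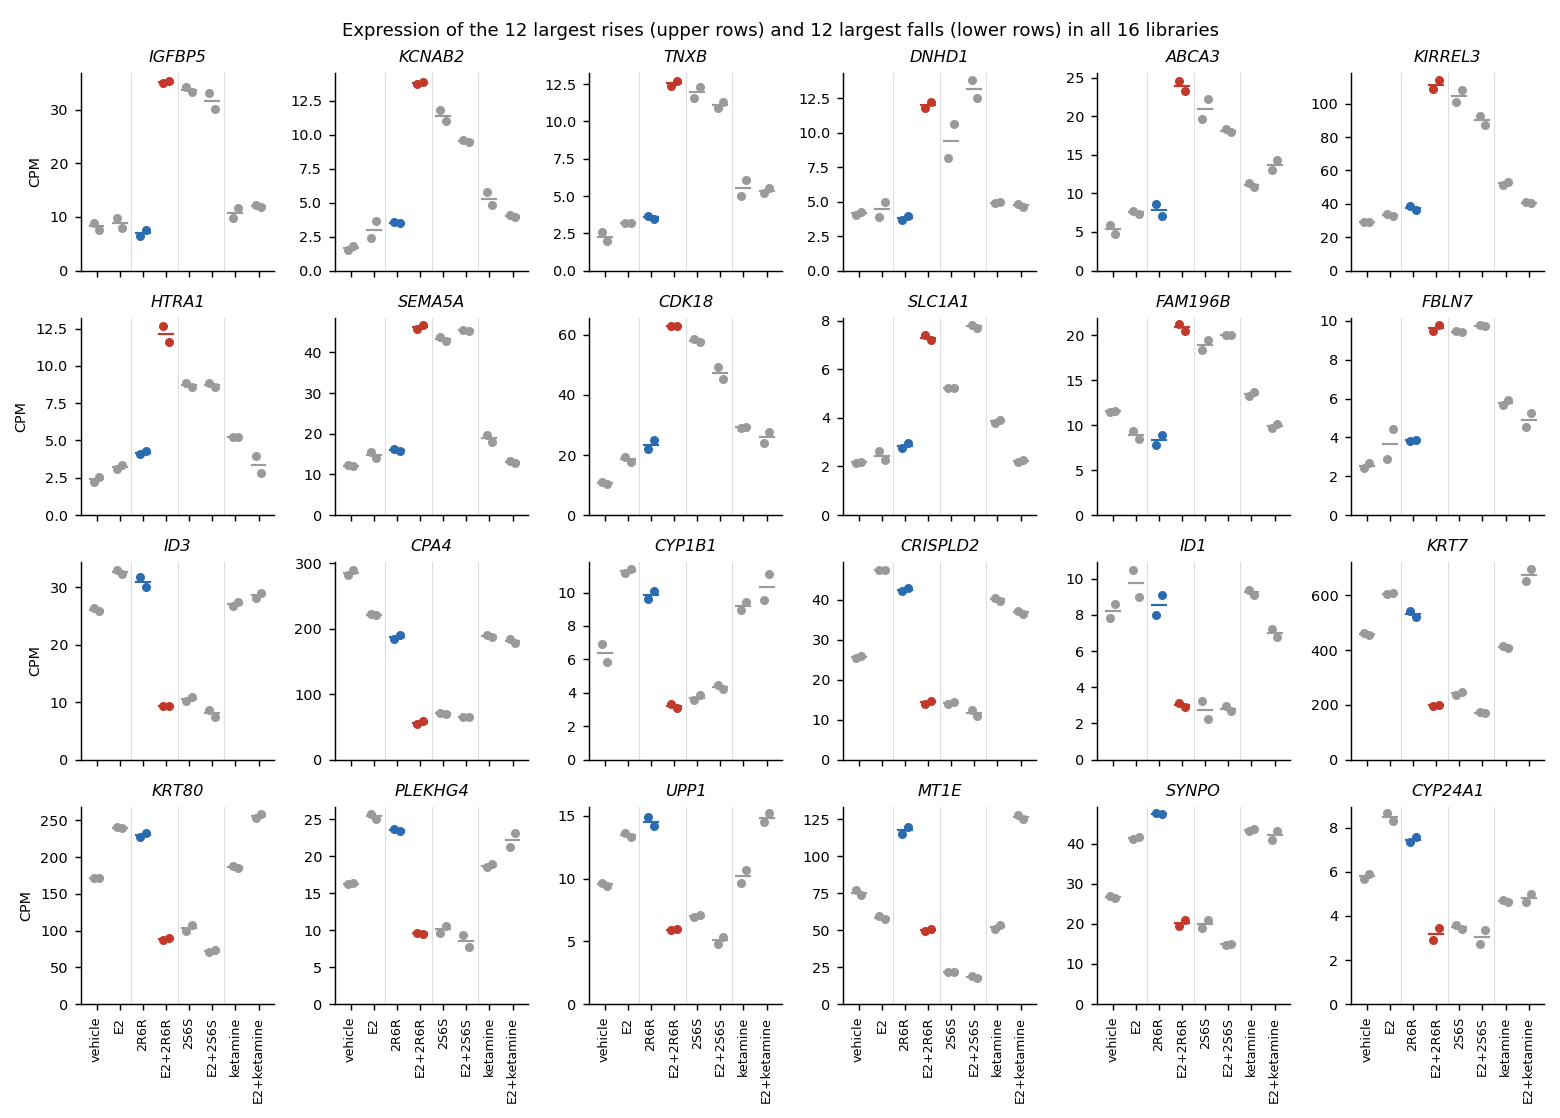
CPM (vertical axes, from 0) of the 12 largest rises (upper 2 rows) and 12 largest falls (lower 2 rows) in the 16 libraries by condition; points are libraries, lines are means of 2, blue marks 2R6R-HNK and red E2+2R6R-HNK. In all 24 genes 2S6S-HNK and E2+2S6S-HNK lie on the side of E2+2R6R-HNK.

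MT1E, a metallothionein that binds zinc and copper, was the fall whose libraries did not separate in that way, since 1 ketamine library lay between those of E2+2R6R-HNK. MT1E was at 115 and 120 CPM with 2R6R-HNK and at 49.4 and 50.8 CPM with E2+2R6R-HNK (log2 fold change -1.23, standard error 0.04, adjusted p = 6.32e-30). Its mean was 75.3 CPM in vehicle, 58.5 in E2 and 52.1 in ketamine, 21.6 in 2S6S-HNK and 127 in E2+ketamine. From the list of metallothioneins and zinc transporters, SLC30A1, the zinc exporter of the plasma membrane, fell from 11.6 and 13.3 to 6.34 and 6.90 CPM (-0.91), MT1F from 7.83 and 9.04 to 5.0 and 5.05 CPM (-0.74), and MT1X from 12.9 and 14.1 to 8.81 and 8.73 CPM (-0.62). MT2A, named after its value was seen, went from 479 and 482 to 344 and 353 CPM (-0.46). Metallothionein genes are close copies of each other, and reads may be shared among them. Over that whole list, 6 of 29 tested members rose, 8 fell and 15 did not pass, with a median of -0.06, so that 48.3% passed against 47.9% of all genes.

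Metallothionein genes are known to carry metal response elements, the sites of the factor MTF1, close to their starts. The promoters of 3 genes of the list that fell are shown. They are the 250 bases before the start of the gene in RefSeq (GRCh38.p14, 5′ to 3′ on the gene's strand), and capitals mark each match to TGCACNC or TGCGCNC on either strand. MT1X lies on chromosome 16 (56682220 to 56682469, plus strand), with 4 matches, MT2A on chromosome 16 (56608334 to 56608583, plus strand), with 7, and SLC30A1 on chromosome 1 (211579162 to 211579411, minus strand), with 1.
MT1X: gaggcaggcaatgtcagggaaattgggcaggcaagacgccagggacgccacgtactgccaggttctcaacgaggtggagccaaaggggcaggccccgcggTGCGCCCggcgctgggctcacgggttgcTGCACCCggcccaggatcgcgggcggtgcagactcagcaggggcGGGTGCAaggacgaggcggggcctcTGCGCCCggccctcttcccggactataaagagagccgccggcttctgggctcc
MT2A: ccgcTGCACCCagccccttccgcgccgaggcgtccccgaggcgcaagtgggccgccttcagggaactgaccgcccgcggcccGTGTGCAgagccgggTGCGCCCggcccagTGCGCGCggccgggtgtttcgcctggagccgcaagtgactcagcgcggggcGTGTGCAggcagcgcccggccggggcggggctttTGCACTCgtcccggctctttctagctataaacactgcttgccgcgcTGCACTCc
SLC30A1: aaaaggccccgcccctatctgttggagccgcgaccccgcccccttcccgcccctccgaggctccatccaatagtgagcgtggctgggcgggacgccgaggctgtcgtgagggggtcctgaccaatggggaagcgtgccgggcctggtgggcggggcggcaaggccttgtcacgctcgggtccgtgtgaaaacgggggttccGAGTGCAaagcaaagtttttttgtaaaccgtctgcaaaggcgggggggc
These letters were present in 44.4% of 36 promoters of the list (27 of its 37 genes matched), in 31.1% of the promoters of all genes tested and in 24.8% of all 35116 promoters in the table. The share was not counted apart for members that rose and members that fell. A part of MTF1 in the falls was not tested.

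For E2 itself, the full palindromic estrogen response element GGTCANNNTGACC was present in 0 of 300 promoters of the genes called higher and 0 of 130 of those called lower, against 0.0184% for all genes tested. Its half-site AGGTCA, searched on both strands, was present in 11.7% and 17.7% of these promoters, against 9.28% for all genes tested and 12.1% of the table. Promoters were matched for 208 of the 310 and 95 of the 167 genes. Among the 24 genes above, SEMA5A, which rose, and CPA4, which fell, have a single promoter in the table and a half-site in it, and both are shown with it in capitals. In all, 5 of the 18 genes with a promoter in the table had a half-site in one, and the others were KCNAB2, TNXB and PLEKHG4, which have several promoters. SEMA5A and CPA4 promoters lie on chromosome 5 (9546076 to 9546325, minus strand) and chromosome 7 (130292911 to 130293160, plus strand) of GRCh38.p14, and the match begins 184 and 175 bases before the start.
SEMA5A: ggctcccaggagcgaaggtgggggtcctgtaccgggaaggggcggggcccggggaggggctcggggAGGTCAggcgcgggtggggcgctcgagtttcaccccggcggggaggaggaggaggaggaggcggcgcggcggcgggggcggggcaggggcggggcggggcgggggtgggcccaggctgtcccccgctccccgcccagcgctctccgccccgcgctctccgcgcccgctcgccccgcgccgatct
CPA4: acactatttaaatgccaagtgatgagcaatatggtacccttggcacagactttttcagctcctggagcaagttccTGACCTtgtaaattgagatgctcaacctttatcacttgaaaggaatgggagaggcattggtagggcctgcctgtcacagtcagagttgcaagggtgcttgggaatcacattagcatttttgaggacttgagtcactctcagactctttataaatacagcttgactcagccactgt
A match to these letters is a description of the sequence, and binding of a receptor was not measured here.

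Gene lists for pathways that E2, ketamine metabolites or microglia are known for were then read as counts and medians, beside the 24.2% of all genes that rose and the 23.8% that fell. Of 32 estrogen receptors and coregulators, 5 rose, 11 fell and 16 did not pass, with a median log2 fold change of -0.05. The coactivator NCOA5 fell by 0.48 and the scaffold factor SAFB2 by 0.41 on the log2 scale. Of 47 estrogen-responsive genes as known from other cells, 13 rose, 15 fell and 19 did not pass, with a median of -0.02. RASGRP1, an activator of Ras, rose from 10.6 and 8.48 to 18.8 and 19.9 CPM (1.01). The remaining leading members of that list were IGFBP5 and ABCA3, described above. In both lists the members that passed were split between rises and falls.

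Of 59 genes of the type I interferon response, through which cells limit virus growth, 24 fell, 10 rose and 25 did not pass (median -0.08). OAS1, an antiviral sensor, was counted 122 and 93 times with 2R6R-HNK and 31 and 30 times with E2+2R6R-HNK (log2 fold change -1.94, standard error 0.28, adjusted p = 9.23e-08). IFIT1 fell from 6.96 and 6.23 to 3.23 and 3.0 CPM (-1.08). MX1 fell from 5.91 and 5.49 to 3.09 and 2.72 CPM (-0.97), and its exons overlap TMPRSS2 on the other strand. In vehicle, OAS1 and MX1 had means of 0.315 and 1.63 CPM, below both groups, and IFIT1 had a mean of 3.35 CPM, above that of E2+2R6R-HNK (3.12 CPM). Of 35 genes of JAK, STAT and SOCS signaling, 13 rose and 5 fell (median 0.08). OSMR, a receptor subunit for oncostatin M, rose from 126 and 126 to 209 and 209 CPM (0.73). SOCS7 rose by 0.77, while SOCS1, a feedback inhibitor of interferon signaling, fell by 0.81 (adjusted p = 0.0106); it did not pass without replicate 2 of 2R6R-HNK (adjusted p = 0.0624) or of E2+2R6R-HNK (0.247). STAT3, which the study followed, rose from 152 and 149 to 198 and 192 CPM (0.38, standard error 0.03, adjusted p = 3.55e-16).

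Of 26 cytokines and chemokines tested, 5 rose and 6 fell. IL11 fell from 74.6 and 76.5 to 43.0 and 45.5 CPM (log2 fold change -0.77) and LIF from 84.2 and 86.1 to 51.8 and 48.7 CPM (-0.76), both cytokines of the IL6 family. CCL26, a chemokine for eosinophils, fell by 1.24. In the complement system, 6 of 17 members rose and 0 fell (median 0.24). SERPING1, the inhibitor of the first complement component, rose from 3.56 and 3.72 to 7.23 and 7.54 CPM (1.02). C2 was at 1.04 and 0.647 CPM and rose to 2.36 and 2.19 CPM (1.41), but its exons overlap another gene model on the same strand. C1RL rose by 0.49 and shares exon bases with C1R. MHC class I presentation had 10 members that rose and 4 that fell of 22 (median 0.10). HLA-B rose from 145 and 141 to 227 and 228 CPM (0.67), and its counts are uncertain because other class I genes are near-identical. NLRC5, the transactivator of class I genes, fell by 0.51, and TAPBPL rose by 1.39 from 0.622 and 0.70 CPM.

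Genes of sterol synthesis mostly rose. Of 30 genes of cholesterol synthesis and its control, 16 rose, 8 fell and 6 did not pass (median 0.24). INSIG1, which holds back the processing of sterol regulatory factors, rose from 296 and 293 to 520 and 508 CPM (log2 fold change 0.80, standard error 0.02, adjusted p = 9.67e-32). ABCA1, the cholesterol exporter, fell from 13.1 and 13.2 to 7.58 and 7.64 CPM (-0.79). Of 25 genes of fatty acid and lipid synthesis, 10 rose and 7 fell (median 0.08). ACSS2, which makes acetyl-CoA from acetate, rose from 100 and 101 to 200 and 188 CPM (0.95), and the desaturase SCD from 1440 and 1430 to 2110 and 2120 CPM (0.56), whereas ME1 fell by 0.60.

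**Figure D4:**
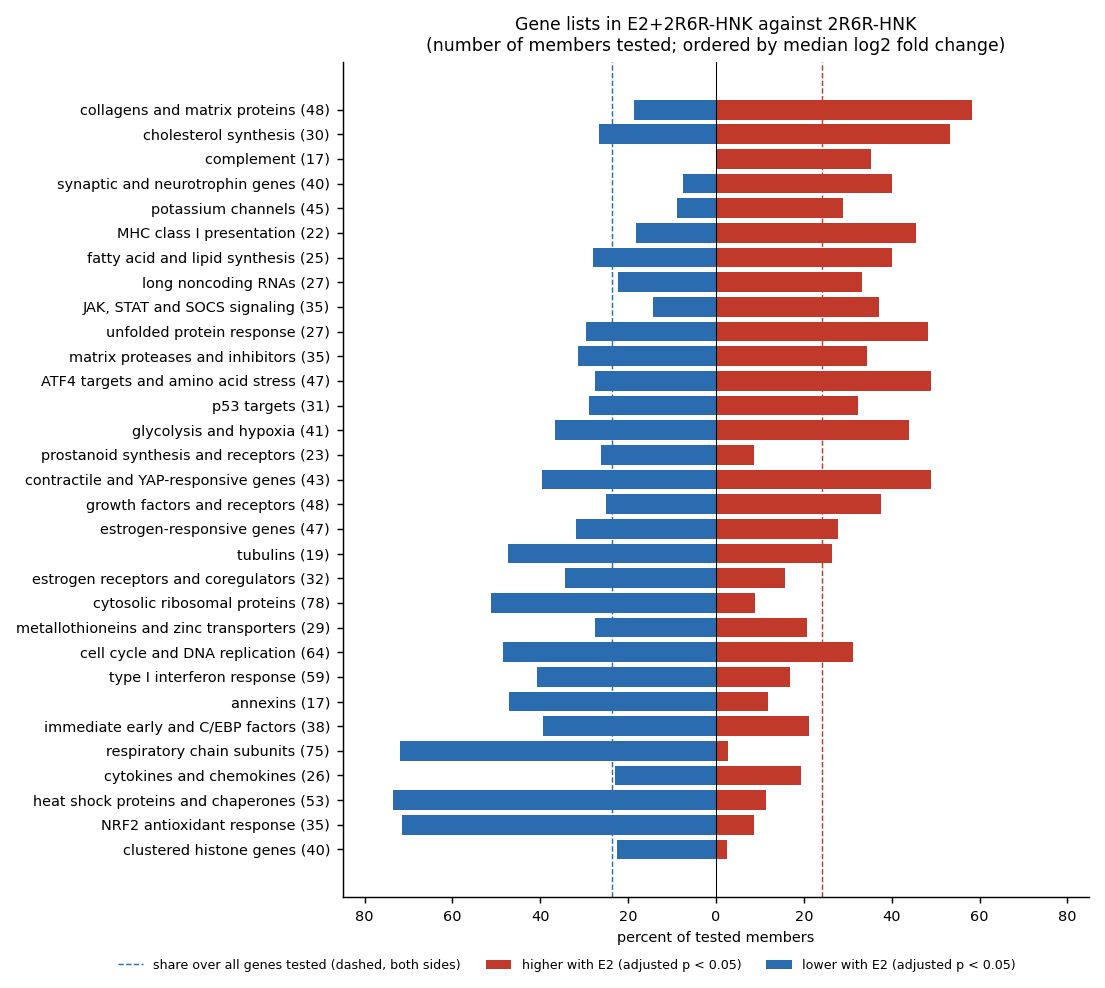
Percent of tested members of each of 31 gene lists that were higher (red, right) or lower (blue, left) in E2+2R6R-HNK than in 2R6R-HNK at an adjusted p under 0.05, with the share over all genes tested as dashed lines; lists are ordered by median log2 fold change. Collagens and cholesterol synthesis lie at the top, with 28 of 48 and 16 of 30 members higher, and chaperones, respiratory chain and NRF2 genes show the longest bars to the left.

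Matrix genes rose in larger number still. Of 48 collagens and matrix proteins, 28 rose, 9 fell and 11 did not pass (median 0.30). COL11A1, a fibrillar collagen, rose from 76.4 and 78.8 to 182 and 182 CPM (log2 fold change 1.23, standard error 0.03, adjusted p = 1.12e-32), and the transmembrane collagen COL13A1 from 2.28 and 2.85 to 6.05 and 6.44 CPM (1.30). Of 35 matrix proteases and inhibitors, 12 rose and 11 fell, with ADAMTS7 higher by 1.05 and ADAMTS10 by 0.85. Of 43 contractile and YAP-responsive genes, 21 rose and 17 fell, and the median of 0.003 was below 0 with DESeq2 and after correction for GC content and length (-0.013). THBS1, an abundant matrix glycoprotein of that list, fell from 1710 and 1710 to 824 and 844 CPM (-1.04, standard error 0.02, adjusted p = 4.66e-40). LMOD1, a leiomodin, and ACTG2, an actin, both of smooth muscle, rose by 1.31 and 0.81. The pericyte or smooth muscle markers given above mostly rose and the fibroblast markers mostly fell, and their part in these lists was not tested. In 48 growth factors and receptors 18 rose and 12 fell (median -0.02), or 15 and 15 after correction for GC content and length, and the median ranged from -0.073 to 0.039 over the settings. IGFBP7 rose from 68.2 and 67.4 to 143 and 131 CPM (1.01) and HAS2, a hyaluronan synthase, by 0.82.

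Chaperones fell. Of 53 heat shock proteins and chaperones, 39 fell, 6 rose and 8 did not pass (median -0.22). HSPH1 fell from 45.9 and 46.8 to 28.1 and 29.4 CPM (log2 fold change -0.69), DNAJA1 from 125 and 121 to 83.2 and 81.3 CPM (-0.58) and BAG2 from 25.5 and 26.2 to 16.7 and 16.8 CPM (-0.63). In each of the 3 genes the groups were apart, and all 3 were highest in vehicle. The median log2 fold change of the list with E2 was -0.45 with vehicle, 0.18 with 2S6S-HNK and -0.11 with ketamine, without correction for GC content and length. The E2 effect with 2R6R-HNK minus that with vehicle had a list median of 0.21, and 0.05 after that correction. Against 2S6S-HNK this median was -0.35, and -0.30 after it. Against ketamine it was -0.18, and -0.23 after it. Of 35 genes of the NRF2 antioxidant response, 25 fell and 3 rose (median -0.25). NQO1, a quinone reductase and classical NRF2 target, fell from 108 and 112 to 61.3 and 61.6 CPM (-0.84, standard error 0.04, adjusted p = 2.66e-25), and GCLM, a subunit of the enzyme that starts glutathione synthesis, by 0.57. Of 75 respiratory chain subunits, 54 fell and 2 rose (median -0.15), with NDUFS6, ATP5G3 and NDUFS5 lower by 0.41, 0.38 and 0.34. Of 78 cytosolic ribosomal proteins, 40 fell and 7 rose by small amounts (median -0.05); RPS10, RPL17 and RPS26 were lower by 0.71, 0.44 and 0.27, and RPS10 and RPL17 overlap read-through genes.

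Stress pathways of the endoplasmic reticulum and of amino acids were mixed. Of 47 ATF4 targets, 23 rose and 13 fell (median 0.06), or 19 and 18 after correction for GC content and length. Of 27 genes of the unfolded protein response, 13 rose and 8 fell (median 0.07), or 11 and 9 after it. ASNS, asparagine synthetase, rose from 65.3 and 64.8 to 121 and 126 CPM (log2 fold change 0.93), and the mitochondrial folate enzyme ALDH1L2 by 0.93, while CHAC1, which degrades glutathione, fell by 0.80. SEC24D, a coat protein of vesicles leaving the endoplasmic reticulum, rose by 0.67, ERO1LB by 0.65 and DNAJB9 by 0.55. Of 41 genes of glycolysis and hypoxia, 18 rose and 15 fell, or 13 and 15 after that correction. CA9, a carbonic anhydrase induced by hypoxia, rose from 3.17 and 2.99 to 7.26 and 8.17 CPM (1.32), ALDOC by 0.70 and SLC2A3 by 0.65; the list's median of 0.05 turned to -0.002 after correction for GC content and length. Of 31 p53 targets, 10 rose and 9 fell, with GDF15 higher by 0.66, POLH by 0.53 and TP53I3 lower by 0.58.

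Of 64 cell cycle and DNA replication genes, 31 fell and 20 rose (median -0.07), with the replication helicase subunit MCM5 lower by 0.46, CCND3 by 0.44 and CCNE2 by 0.49. Clustered histone genes had a median of -0.41, and 9 of 40 fell and 1 rose; HIST1H2BJ fell by 0.79, HIST1H3D by 1.11 and HIST1H3G by 0.81, the last with an edgeR adjusted p of 0.0661 without E2+2R6R-HNK replicate 2. Of 19 tubulins, 9 fell and 5 rose, with TUBB3, TUBA4A and TUBA1C lower by 0.57, 0.37 and 0.33. Among 17 annexins and their partners, 8 fell and 2 rose; ANXA1, which dampens inflammation, fell from 71.5 and 69.1 to 41.6 and 41.1 CPM (log2 fold change -0.77), S100A4 fell by 0.71 (edgeR adjusted p = 0.105 without 2R6R-HNK replicate 2), and ANXA9 had a log2 fold change of 0.38 that did not pass (adjusted p = 0.0958). Of 38 immediate early and C/EBP factors, 15 fell and 8 rose. ARC fell by 1.10 and IER3 by 0.65, and FOSB rose by 0.71. Of 23 genes of prostanoid synthesis and receptors, 6 fell and 2 rose, with PTGES2 and PTGS1 lower by 0.59 and 0.52 and PTGIS higher by 0.55.

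Synaptic and neurotrophin genes, which are of interest for ketamine metabolites, had 16 members that rose and 3 that fell of 40 (median 0.16), or 11 and 6 after correction for GC content and length. DLG4, the gene of the postsynaptic scaffold PSD95, rose from 22.2 and 22.6 to 41.7 and 38.2 CPM (log2 fold change 0.83, standard error 0.06, adjusted p = 3.44e-16). The NMDA receptor subunits GRIN3B and GRIN2C were low and rose by 0.87 and 0.84, from 1.72 and 1.49 to 3.06 and 2.85 CPM and from 1.57 and 2.17 to 3.29 and 3.32 CPM. The study also followed BDNF, SYN1 and EEF2, which were looked up after the data were seen. BDNF was at 21.0 and 21.8 CPM without E2 and at 24.3 and 23.5 CPM with it (0.16, standard error 0.06, adjusted p = 0.0184); it shares exon bases with BDNF-AS on the other strand, and it did not pass in 6 alternative settings, among them without replicate 1 of 2R6R-HNK (adjusted p = 0.159) or of E2+2R6R-HNK (0.127). SYN1 was at 0.933 and 0.56 CPM and at 0.523 and 1.17 CPM, groups that overlap (adjusted p = 0.738). EEF2 rose by 0.19. Of 45 potassium channel genes, 13 rose and 4 fell, with KCNAB1 higher by 0.93 and KCNJ14 by 0.83 beside KCNAB2. Of 27 long noncoding RNAs, 9 rose and 6 fell, or 7 and 8 after correction for GC content and length. MEG3 rose from 75.6 and 75.6 to 130 and 129 CPM (0.78), and DANCR and MIR17HG fell by 0.67 and 0.65, the latter with an adjusted p of 0.0301 that became 0.0652 to 0.121 when any 1 of the 4 libraries was left out.

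Whether the E2 effect with 2R6R-HNK differed from the E2 effect in the other backgrounds was tested as an interaction, in which the compared effects share no library. E2 called 290 genes with vehicle (1.81%), 112 with 2S6S-HNK (0.7%) and 172 with ketamine (1.07%). Of the 477 genes called with 2R6R-HNK, 24 were also called with vehicle, which is 5.03% of the 477 and 8.28% of the 290, and 18 of them in the same direction. With 2S6S-HNK 9 were shared (1.89% and 8.04%), 8 in the same direction, and with ketamine 18 were shared (3.77% and 10.5%), 2 in the same direction and 16 in the opposite direction. By adjusted p alone in the other background, 141 of the 477 passed with vehicle, 82 in the same direction and 59 in the opposite one. With 2S6S-HNK 72 passed (51 same, 21 opposite), and with ketamine 83 (18 same, 65 opposite). Over all 16004 genes tested, 10007 passed with vehicle, 8210 with 2S6S-HNK and 9203 with ketamine, which are larger shares than among the 477. Of the 477, 285 had a mean below 1 CPM, where few counts limit what can pass. E2 effects in these backgrounds followed exon GC content far more than with 2R6R-HNK, with Spearman correlations across genes of 0.755 with vehicle, -0.607 with 2S6S-HNK and 0.593 with ketamine. After correction for GC content and length, 132 genes were called with vehicle, 73 with 2S6S-HNK and 106 with ketamine, against 462 with 2R6R-HNK; the shared genes above were counted without it.

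The E2 effect with 2R6R-HNK differed from that with vehicle by a log2 difference of at least 1 in 909 genes (5.68%), of which 465 were more positive and 444 more negative (edgeR quasi-likelihood test, Benjamini-Hochberg adjustment). The balance turned with upper-quartile normalization (363 and 510), with DESeq2 (364 and 441) and after correction for GC content and length, which gave 518 genes (232 and 286), of which 386 were among the 909. The largest positive differences at a mean of at least 5 CPM were in IGFBP5 (2.24, standard error 0.13), HAS2 (1.94), FAT3 (1.78), NAV3 (1.77) and MIR100HG (1.74). E2 lowered HAS2 with vehicle (9.66 to 4.42 CPM in the means) and raised it with 2R6R-HNK (3.51 to 6.18 CPM), and the cadherin FAT3 and the neuron navigator NAV3 likewise moved in opposite directions. The largest negative differences at the same limit were in CRISPLD2 (-2.45, standard error 0.08), CYP1B1 (-2.44), ID3 (-2.06), PLEKHG4 (-1.94) and IER5L (-1.89). CRISPLD2 rose with E2 from 25.7 to 47.4 CPM against vehicle and fell from 42.5 to 14.3 CPM with 2R6R-HNK. The values of these named genes are without correction for GC content and length. In the order named, exon GC content was 52.1, 37.2, 45.5, 45.0 and 40.2% for the positive differences. It was 52.7, 45.0, 56.8, 61.8 and 65.0% for the negative ones. The part of GC content in these differences was not tested.

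Against its stereoisomer at the same dose, the E2 effect with 2R6R-HNK differed from that with 2S6S-HNK in 526 genes (3.29%), 345 more positive and 181 more negative. Scaling by the library total alone turned this split to 238 and 307. The differences named next are those at a mean of at least 5 CPM over the libraries compared. IGFBP5 (2.43, standard error 0.11, 95% interval 2.21 to 2.65), KCNAB2 (2.23), TNXB (1.92), ABCA3 (1.81) and KIRREL3 (1.78) led the positive ones. CYP1B1 (-1.84), IGFN1 (-1.67), CPA4 (-1.61), ID3 (-1.35) and the ribonuclease P subunit RPP40 (-1.33) led the negative ones. With 2S6S-HNK itself, the log2 fold change with E2 was -0.09 for IGFBP5, -0.22 for KIRREL3 and -0.12 for CPA4, and both 2S6S-HNK conditions were near the level of E2+2R6R-HNK. Over the lists, 29 of 48 collagens and matrix proteins had a more positive E2 effect with 2R6R-HNK and 6 a more negative one, and 34 of 53 chaperones had a more negative one and 5 a more positive one. Of all genes tested, 25.8% had a more positive and 21.5% a more negative effect. Corrected for GC content and length, the counts of the lists were 25 and 11, and 35 and 6, beside 3112 more positive and 3102 more negative of all genes tested.

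The difference from the E2 effect with ketamine held for the most genes, 1111 (6.94%), of which 654 were more positive and 457 more negative. Scaling by the library total alone gave 1364 genes, 1120 of them more positive, with the median difference over all genes at 0.22 in place of 0.055. At a mean of at least 5 CPM over the libraries compared, KCNAB2 (2.37), IGFBP5 (2.17), HTRA1 (2.17), SEMA5A (2.06) and KIRREL3 (1.93) were most positive. The most negative at the same limit were MT1E (-2.51, standard error 0.06, edgeR adjusted p = 1.53e-36), SLC30A1 (-2.18), KRT7 (-2.14), MT1F (-1.99) and MT1X (-1.94). Of these, 4 belong to the list of metallothioneins and zinc transporters. Over that list, 10 of 29 members were more negative and 9 more positive, with a median difference of 0.03, which became 10 and 4 with a median of -0.14 after correction for GC content and length. E2 raised MT1E from 52.1 to 127 CPM and SLC30A1 from 5.27 to 12.8 CPM in the presence of ketamine, and lowered them from 118 to 50.1 CPM and from 12.4 to 6.62 CPM in the presence of 2R6R-HNK. Respiratory chain subunits had a more negative E2 effect with 2R6R-HNK in 54 of 75 members and a more positive one in 7, or 63 and 2 after correction for GC content and length. NRF2 genes were more negative in 23 of 35 and more positive in 4, or 21 and 3 after it. Of all 16004 genes tested, 26.5% were more negative and 29.9% more positive, a balance that turned to 4813 and 3482 genes after the correction.

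**Figure D5:**
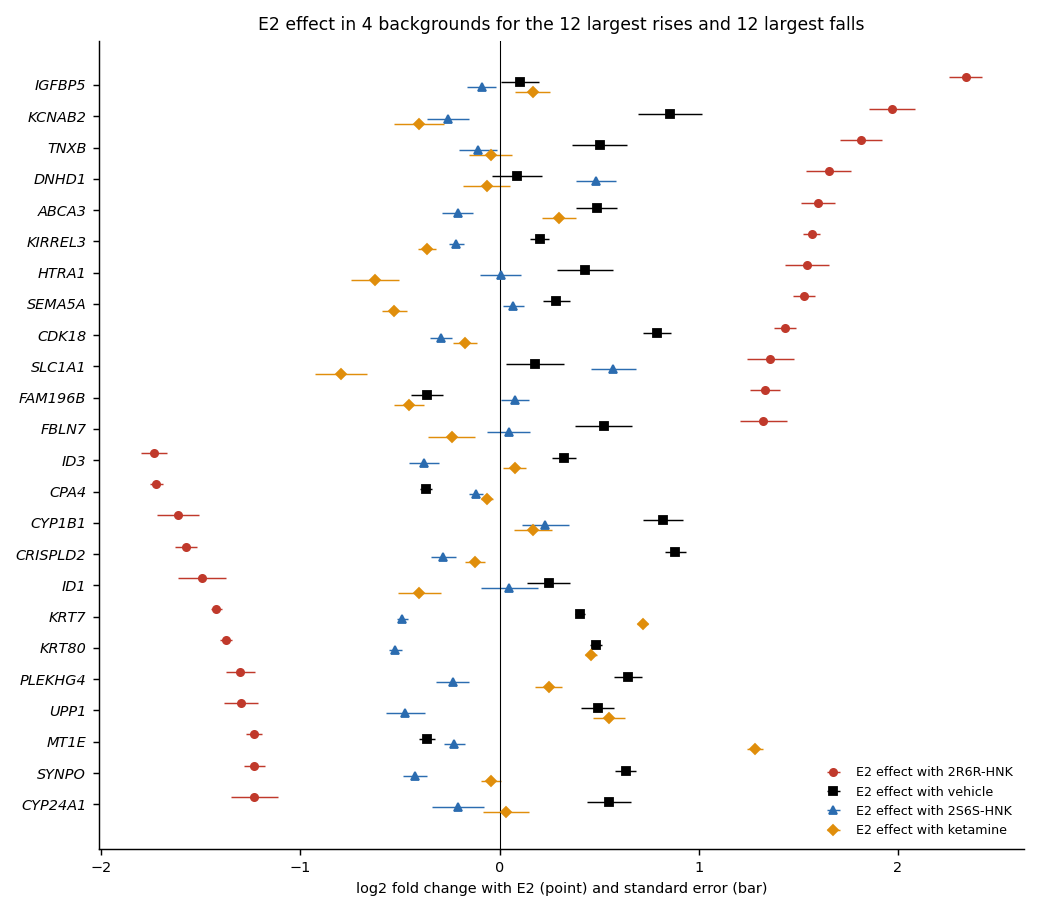
Log2 fold change with E2 (horizontal axis, point with its standard error) for the 12 largest rises and 12 largest falls, in the presence of 2R6R-HNK (red circles), vehicle (black squares), 2S6S-HNK (blue triangles) and ketamine (orange diamonds); the genes were chosen on the red values. In the other 3 backgrounds the E2 effects lie between -0.80 (SLC1A1 with ketamine) and 1.28 (MT1E with ketamine).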

How the data were processed

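RNA-seq read counts per gene in 16 libraries of HMC3 cells (8 conditions, 2 libraries each) were used as the authors deposited them, as raw counts without normalization. Per the study's methods, reads were paired, aligned to hg19 and counted with featureCounts. The submitters' processing notes name TopHat2 2.0.14, Bowtie2 2.2.6 and featureCounts 1.4.6, while the study's methods give earlier versions of both aligners. Whether counting used strand is not given in the sources used here. In the 4 libraries compared, 66.0% of counts from 1 to 9 were even numbers, as can arise where both mates are counted, against 49.7% of counts of 500 or more; the methods describe counts of read pairs, the cause was not settled here, and halving all counts was one alternative.

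The libraries held 55300614 to 81646165 counts. Genes were filtered with filterByExpr (16004 of 25370 kept) and scaled by TMM. CPM and log2 fold changes were computed here from the deposited counts with edgeR 4.0.16 (R 4.3.3), by its quasi-likelihood test on a means model of the 8 conditions without a replicate block (8 residual degrees of freedom), with Benjamini-Hochberg adjustment over all genes tested. "Called" means that the adjusted p was under 0.05 and the log2 value at least 1 in size, the study's own limits; "rose" and "fell" need only the adjusted p. The pipeline was tested on simulated data. Differences between E2 effects were tested as interaction contrasts. DESeq2 1.42.0, other filters and scalings, correction for GC content and length, a replicate block and leaving out each library were the alternatives. Counting intervals cover counting error only.

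Genes named are the 12 largest rises and 12 largest falls among called genes whose groups did not overlap and whose mean reached 5 CPM, the 3 members of each list with the largest change at a mean of at least 1 CPM, the receptors for E2, and 5 genes per direction and interaction. Some genes that this rule names are not reported here. MT2A, STAT3, EEF2, BDNF and SYN1 were added after their values were seen. The comparison, the gene lists and the tests were chosen with earlier results of these data known. Gene positions and overlaps come from a GENCODE annotation on GRCh37, to which 21539 genes were joined by their current symbol and 1498 through a former one. Promoter sequences come from RefSeq (GRCh38.p14).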

Additional observations from a re-analysis of the deposited data

Results flagged for a closer look

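The E2 effect differed between backgrounds by the interaction test of edgeR in 909 genes against vehicle, 526 against 2S6S-HNK and 1111 against ketamine. For each, the 5 most positive and 5 most negative log2 differences at a mean of at least 5 CPM over the libraries compared are listed. They are without correction for GC content and length. Against vehicle, they were 2.24 for IGFBP5, 1.94 for HAS2, 1.78 for FAT3, 1.77 for NAV3 and 1.74 for MIR100HG, and -2.45 for CRISPLD2, -2.44 for CYP1B1, -2.06 for ID3, -1.94 for PLEKHG4 and -1.89 for IER5L. Against 2S6S-HNK, they were 2.43 for IGFBP5, 2.23 for KCNAB2, 1.92 for TNXB, 1.81 for ABCA3 and 1.78 for KIRREL3, and -1.84 for CYP1B1, -1.67 for IGFN1, -1.61 for CPA4, -1.35 for ID3 and -1.33 for RPP40. Against ketamine, they were 2.37 for KCNAB2, 2.17 for IGFBP5, 2.17 for HTRA1, 2.06 for SEMA5A and 1.93 for KIRREL3, and -2.51 for MT1E, -2.18 for SLC30A1, -2.14 for KRT7, -1.99 for MT1F and -1.94 for MT1X.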

How the results depend on the processing

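The 477 called genes became 322 to 504 under the other tools, filters and scalings, with the fewest in DESeq2 on the 4 libraries and the most in edgeR on them. Leaving out 1 library at a time gave 429 to 450 called and 6377 to 6574 passing genes, and 874 to 959, 493 to 566 and 1037 to 1177 for the differences from vehicle, 2S6S-HNK and ketamine. Correction for GC content and length changed the number of genes that differed from vehicle from 909 to 518 (386 shared), and together with the replicate block to 507. The replicate numbers did not pair the samples (correlation of deviations -0.0258 to 0.0451 over the pairs); with the number as a block, 471 genes were called, 7622 passed, and 904, 515 and 1090 differed, and it changed the side of the threshold of no gene named. ESR2, which did not pass in any setting, turned to -0.033 with the GC correction, -0.012 with it and the block, and ranged from -0.373 to 0.401 when each library was left out, below 0 (-0.07 and -0.373) without replicate 2 of either group. SYN1, likewise not passing, ranged from -0.536 to 0.625, with -0.142 and -0.536 without these. The adjusted p no longer passed for BDNF and MIR17HG in 6 settings each, for SOCS1 in 3 (log2 fold change -0.46 without E2+2R6R-HNK replicate 2, adjusted p = 0.247 by edgeR), for GPER1 and HIST1H3G in 2 each (GPER1 in DESeq2 on the 4 libraries, adjusted p = 0.0505, and without 2R6R-HNK replicate 2) and for S100A4 in 1; the causes were not tested. The ratio of distances between and within conditions was 1.32 with 500 genes. Depth limits ESR1, ESR2 and the 285 called genes with a mean under 1 CPM.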
